A study of Oryctolagus cuniculus with 12 samples.

Results

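Expression of the genes that process and crosslink collagen was examined in rabbit conjunctiva of eyes after glaucoma filtration surgery and of eyes without it. The genes were LOX, LOXL2, LOXL3, PLOD1, PLOD2, P4HA1, P4HA2, SERPINH1, PCOLCE, and BMP1, chosen by their names in the deposited gene table. Of these 10 genes, 9 were found by name among 20566 genes. No row carries the name SERPINH1, and that gene was read from a row described as serpin H1 that was matched by gene ID, so it is reported beside the 9 genes and not counted with them. All 9 genes passed the filter on low counts, as did the row for SERPINH1.

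RNA of conjunctiva from female Japanese white rabbits was sequenced in 12 libraries, 3 in each of 4 groups. The right eyes underwent trabeculectomy, in which aqueous humor is led through an opening under a scleral flap into a bleb below the conjunctiva, with mitomycin C, a DNA-crosslinking drug used against scarring. Conjunctiva with the bleb was taken 3 hours (TL3h), 3 days (TL3d), or 14 days (TL14d) after the operation. The control group was conjunctiva of left eyes, which were not operated on. Per the study's methods, a betamethasone injection and an antibiotic ointment closed the operation, so all 3 operated groups share these agents and the control group does not. The methods state an age of 12 to 14 weeks for the rabbits in general and describe the trabeculectomy libraries as earlier data, so the age may not apply to them. A figure legend of the study describes the operated groups as averages over 3 eyes, and 1 eye per rabbit was operated on, so the 3 libraries of an operated group are taken as 3 rabbits. Which operated eye each control eye belongs to is not given in the sources used here.

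Collagen chains are modified inside the cell before they fold into a triple helix. Prolyl 4-hydroxylases make the helix stable, lysyl hydroxylases prepare lysines for crosslinks, and the chaperone SERPINH1 (HSP47) binds the folded helix on its way out. Outside the cell, BMP1 removes the C-terminal propeptide with the help of PCOLCE, and lysyl oxidases then oxidize lysines so that fibrils become crosslinked. In conjunctiva these genes are mainly known from the fibroblasts of the stroma, and crosslinked collagen is a main component of the scar that can close a filtering bleb.

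Libraries held between 27111348 and 38591425 counts in total. Levels are given as CPM (counts relative to library size, with the sizes scaled by TMM), and a count of 0 would have allowed up to 3 counts, or 0.0712 to 0.124 CPM (counting error only). Differences were tested in edgeR with its quasi-likelihood test on 14835 genes. The p-value adjusted over these genes by the Benjamini-Hochberg method is written q, and the threshold was a q of 0.05. Errors of log2 fold changes are standard errors (SE). The confidence intervals (CI) are at 95%. With 3 libraries a group, the smallest p an exact permutation test can reach is 0.10, so none is given for single genes.

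Libraries of the same group differed widely. Over all tested genes, control replicate 3 lay 0.793 from the mean of the other two control libraries (root mean square, log2 scale), while those lay 0.551 from each other. The same distances were 0.788 and 0.504 for TL3d replicate 3, and 0.981 and 0.760 for TL14d replicate 1. The counts of genes past the threshold are also given without these 3 libraries, a choice made after the data were seen. TL3h replicate 2 met the same description by a smaller margin (0.576 and 0.522) and was kept in those fits. The 6 epithelial markers were found in every library, with sums of 3683 to 8128 CPM in control, 4327 to 6647 CPM in TL3h, 6837 to 15534 CPM in TL3d, and 8153 to 13830 CPM in TL14d, and the skeletal muscle markers summed to 90.7 CPM in control replicate 2 and 28.3 CPM in TL3d replicate 3, against at most 2.87 CPM in any other library.

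PLOD2, which hydroxylates lysines in the telopeptides where the stable crosslinks of scars form, was the only one of the 9 genes past the threshold in any of the 5 comparisons made. It was 4.46-fold higher at 3 days than at 3 hours (log2 fold change 2.16, SE 0.75, q = 0.0439, edgeR quasi-likelihood test). Against the control group, 0 of the 9 genes were past the threshold at 3 hours, 3 days, or 14 days in edgeR, where 45.4%, 17.6%, and 0% of all tested genes were past it. At an unadjusted p under 0.05 the counts were 0, 1, and 1, each time PLOD2, beside 52.3%, 36.2%, and 10.4% of all tested genes. DESeq2 called 0, 1, and 1 of the 9 genes, again PLOD2 (all genes 51.1%, 30.3%, and 2.49%), and limma-voom called 0 in each comparison (44.9%, 19%, and 0%). Between TL3d and TL3h 37.3% of all tested genes were past the threshold, and 2 of the 9 genes, PLOD2 and BMP1, had an unadjusted p under 0.05 (47.5% of all genes). DESeq2 called 1 of them, PLOD2 (44.9%), and limma-voom 0 (36.5%). Between TL14d and TL3d 2.24% of all tested genes were past the threshold, with 0 of the 9 genes by edgeR, at an unadjusted p under 0.05 (22.6% of all genes), by DESeq2 (12.5%), and by limma-voom (3.4%). The intervals were wide, so a difference that missed the threshold does not show an equal level.

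**Figure D1:**
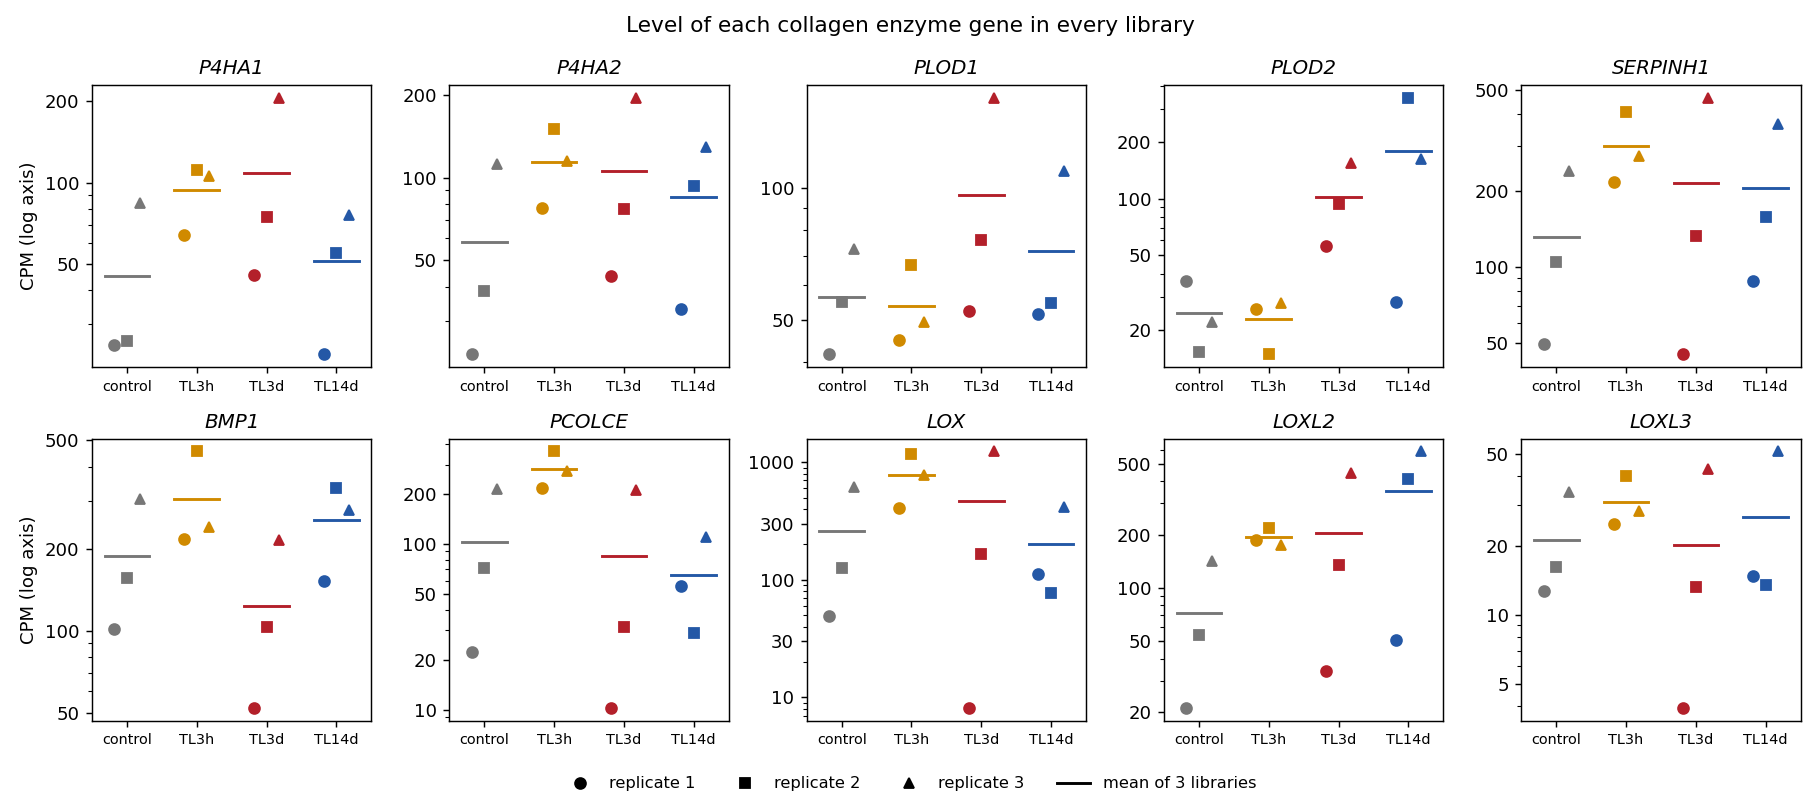
Level of each gene in every library, in CPM on a log axis, by group (x axis). Symbols mark replicates 1, 2, and 3, and bars mark the mean of 3 libraries. PLOD2 is the gene whose 3 TL3d libraries (56.2 to 156 CPM) all lie above the control and TL3h libraries, and LOX spans from 8.17 to 1239 CPM within TL3d.

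**Figure D2:**
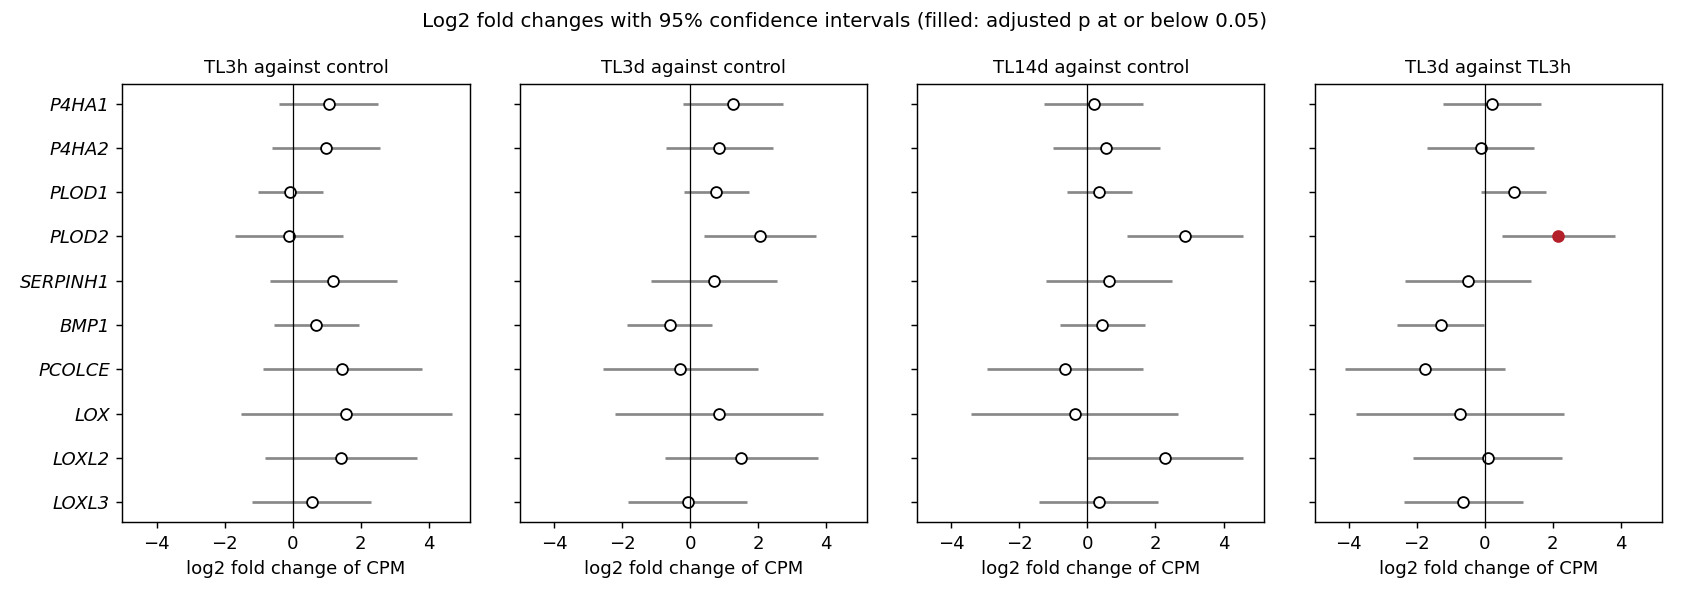
Log2 fold change of CPM (x axis) for each gene in 4 comparisons, with 95% confidence intervals. The filled point, PLOD2 in TL3d against TL3h (log2 fold change 2.16), is the one past the threshold, and the interval of LOX in TL3h against control is the widest of that comparison, from -1.53 to 4.69.

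Among the lysyl hydroxylases, PLOD2 (chromosome 14 of OryCun2.0, 39741249 to 39840307, minus strand) was at 36.6, 15.3, and 22.0 CPM in control replicates 1 to 3. It was at 25.8, 14.9, and 28.0 CPM in TL3h and at 56.2, 93.9, and 156 CPM in TL3d. Every TL3d library was thus above every control and every TL3h library, while the control and TL3h libraries overlapped. At 14 days, replicates 2 and 3 were at 345 and 163 CPM, above all control libraries, and replicate 1 was at 28.1 CPM, within their range. The log2 fold changes against control were -0.11 at 3 hours (SE 0.72, q = 0.917), 2.05 at 3 days (SE 0.74, CI 0.40 to 3.70, q = 0.0784), and 2.86 at 14 days (SE 0.76, CI 1.16 to 4.56, q = 0.346) in the edgeR quasi-likelihood test.

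The calls for PLOD2 depended on single libraries. In TL3d against TL3h, PLOD2 was past the threshold when TL3d replicate 1 or TL14d replicate 1 or 2 was left out (q = 0.0459, 0.00709, and 0.0274), and it was not when any other of the 12 libraries was left out (9 fits, q from 0.05 to 0.128), with log2 fold changes from 1.72 to 2.45 over these fits. Without TL14d replicate 1, PLOD2 was past the threshold against control both at 3 days (log2 fold change 2.05, q = 0.0163) and at 14 days (3.37, q = 0.0142). DESeq2 called it in both comparisons as well (q = 0.0194 and 0.00605), and limma-voom did not call it in TL3d against TL3h (q = 0.0852). A fit with the replicate number as a block did not call PLOD2 in TL3d against TL3h either. Between TL14d and TL3d the log2 fold change was 0.81 (q = 0.536), and without TL14d replicate 2 it was -0.09.

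PLOD1, which hydroxylates lysines within the helix, lies on unplaced sequence and varied less. Its control libraries were at 41.7, 54.9, and 72.6 CPM, its TL3h libraries at 44.8, 66.8, and 49.2 CPM, its TL3d libraries at 52.4, 75.9, and 161 CPM, and its TL14d libraries at 51.4, 54.5, and 110 CPM. The groups overlapped in each comparison with control. The log2 fold change was -0.07 at 3 hours (SE 0.43), 0.78 at 3 days (SE 0.43, CI -0.18 to 1.73, q = 0.218), and 0.35 at 14 days (SE 0.43) by edgeR. In TL3d against TL3h it was 0.85 (SE 0.43, q = 0.147), and with scaling by library size alone, which moved the median of all genes to 0.43 in that comparison, it was 1.31 (q = 0.0265).

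To compare the levels of both genes, the FPKM values, which are per length, were divided within each library. The ratio of PLOD2 to PLOD1 was 0.659, 0.210, and 0.227 in the control libraries and 0.431, 0.167, and 0.426 in TL3h. In TL3d it was 0.805, 0.929, and 0.726, above every control and TL3h library, with the smallest spread of any group (SD 0.18 on the log2 scale, against 0.92, 0.78, and 1.78 in control, TL3h, and TL14d). At 14 days PLOD2 exceeded PLOD1 in replicates 2 and 3, with ratios of 4.75 and 1.12, and the ratio was 0.410 in replicate 1.

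Reads of PLOD2 were divided by the authors between 2 transcript models of 3883 and 3821 bases. PLOD2 is known to have a long and a short splice form that differ by an exon, but the table does not say which form each model is. The longer model took 39.3%, 62.2%, and 73.2% of the PLOD2 transcript counts in the control libraries, 66.1%, 81.6%, and 59.7% in TL3h, 58.6%, 82.1%, and 94.9% in TL3d, and 36.6%, 80.7%, and 82.0% in TL14d. The groups overlapped. The library with the lowest PLOD2 level in TL14d (replicate 1) also had the lowest share of the longer model of all 12 libraries, and TL3d replicate 3 had the highest share. These shares rest on estimated counts and were not tested.

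**Figure D3:**
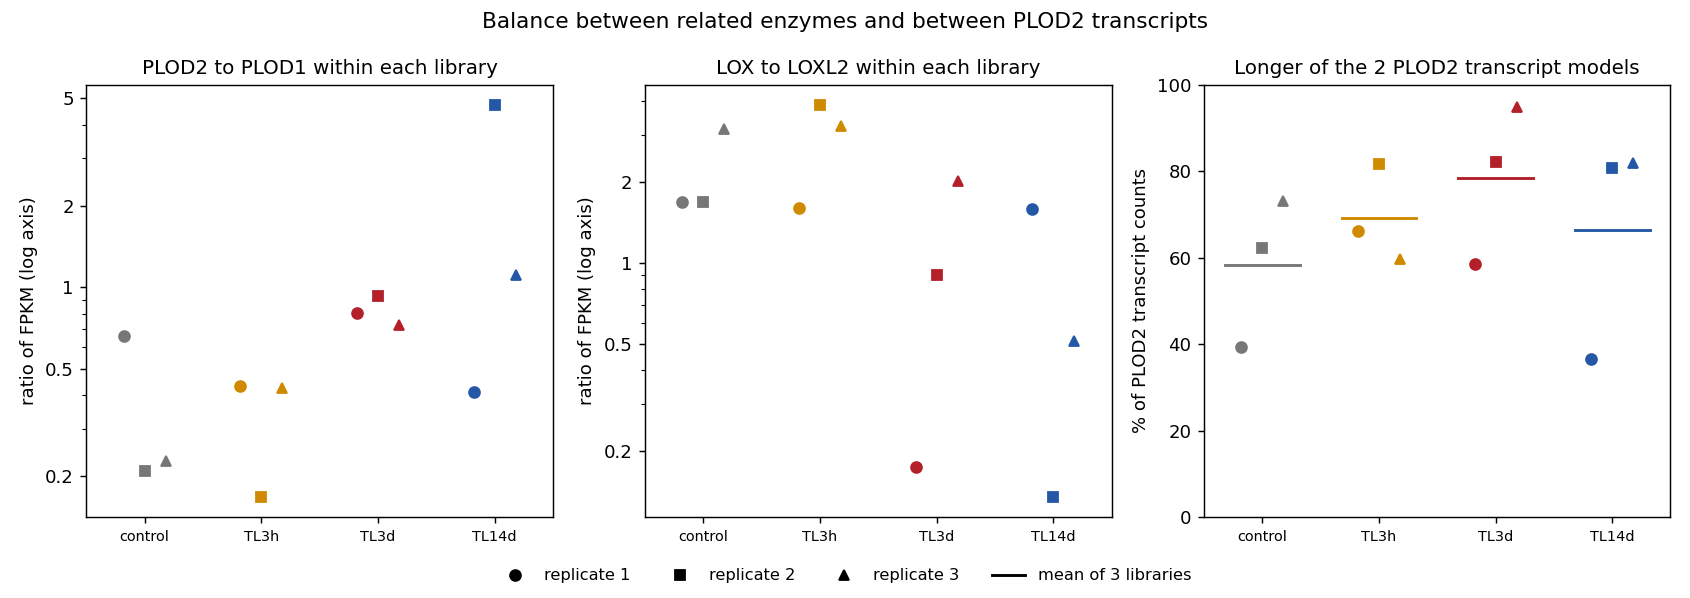
Ratio of FPKM within each library for PLOD2 to PLOD1 and for LOX to LOXL2 (log axes), and the share of PLOD2 transcript counts given to the longer model (bars: means of 3 libraries). The PLOD2 to PLOD1 ratio is 0.726 to 0.929 in TL3d and below 0.66 in every control and TL3h library.

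The prolyl 4-hydroxylase subunits P4HA1 (chromosome 18, 14332290 to 14438275, plus strand) and P4HA2 (chromosome 3, 15256234 to 15293994, minus strand) are alternative catalytic subunits of the same enzyme. P4HA1 was at 25.2, 26.1, and 84.1 CPM in the control libraries, 64.2, 111, and 106 CPM in TL3h, 45.8, 74.8, and 206 CPM in TL3d, and 23.3, 55.0, and 75.9 CPM in TL14d. P4HA2 was at 22.6, 38.7, and 113 CPM in the control libraries, 77.3, 151, and 115 CPM in TL3h, 43.8, 76.8, and 196 CPM in TL3d, and 33.1, 92.9, and 130 CPM in TL14d. For both genes control replicate 3 was above the lowest library of every operated group, so no group stood clear of the control group. The 2 subunits followed each other closely: their profiles over the 12 libraries differed by a root mean square of 0.31 on the log2 scale, while the P4HA1 profile itself departed from its control mean by 1.14. This is a description over libraries that share groups and depth.

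At 3 hours the log2 fold change was 1.06 for P4HA1 (SE 0.66, q = 0.221) and 0.98 for P4HA2 (SE 0.71, q = 0.294) by edgeR. At 3 days it was 1.27 for P4HA1 (SE 0.66, CI -0.20 to 2.74, q = 0.192) and 0.86 for P4HA2 (SE 0.71, q = 0.407), and at 14 days it was 0.19 and 0.56 (SE 0.65 and 0.71). The ratio of P4HA2 to P4HA1 in FPKM was 1.13 to 1.87 in control, 1.37 to 1.71 in TL3h, 1.20 to 1.29 in TL3d, and 1.79 to 2.15 in TL14d, so that the alpha 2 subunit was the higher one in every library. The TL14d ratios lay above those of TL3h and TL3d and overlapped the control libraries.

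SERPINH1, the collagen chaperone, was read from a row on chromosome 1 (141171454 to 141175283, minus strand). Per length it had the highest level of the 10 genes in each group, with a mean of 104 FPKM in control, 175 in TL3h, 173 in TL3d, and 167 in TL14d. Its levels were 49.3, 104, and 238 CPM in the control libraries, 217, 410, and 273 CPM in TL3h, 45.1, 132, and 466 CPM in TL3d, and 88.2, 158, and 368 CPM in TL14d. All groups overlapped the control group, and the log2 fold changes were 1.20, 0.72, and 0.65 at the 3 times (SE 0.84, 0.83, and 0.83, q = 0.275, 0.566, and 0.813, edgeR). A row on chromosome 19 (LOC100345019) carries the same description and may share reads with it, which was not tested. In each row 66.7% of the count values were fractions, the same share as for PLOD1, so fractions alone do not show shared reads. The chromosome 19 row differed from control by 1.16, 0.94, and 0.66 on the log2 scale, and the level of SERPINH1 alone is uncertain.

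BMP1, the procollagen C-proteinase, lies on unplaced sequence. It was at 101, 156, and 305 CPM in the control libraries, 217, 455, and 241 CPM in TL3h, 52.3, 103, and 215 CPM in TL3d, and 152, 334, and 277 CPM in TL14d. All TL3d libraries were below all TL3h libraries (log2 fold change -1.30, SE 0.57, q = 0.0987, edgeR). Of all tested genes, 54.7% had no overlap between these groups. Over the fits that leave out 1 library the value ran from -1.96 (q = 0.0303, without TL3d replicate 3, the one such fit past the threshold) to -0.85 (q = 0.315, without TL3h replicate 2). Against control the log2 fold changes were 0.70, -0.60, and 0.44 (SE 0.56 each), with overlap each time.

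PCOLCE (chromosome 6, 27188473 to 27193636, minus strand), which binds procollagen and speeds up BMP1, was at 22.1, 71.6, and 214 CPM in the control libraries and at 216, 360, and 273 CPM in TL3h. The TL3h libraries thus lay above all control libraries, though replicate 1 did so by a small margin (log2 fold change 1.46, SE 1.05, q = 0.286, edgeR). At 3 days the levels were 10.3, 31.3, and 211 CPM, all below those of TL3h (log2 fold change -1.75, SE 1.06, q = 0.217). This difference was -3.76 (q = 0.0212) without TL3d replicate 3, the one fit without a library that was past the threshold, and -1.22 (q = 0.391) and -1.35 (q = 0.43) without TL3d replicates 1 and 2. At 14 days they were 55.8, 28.9, and 110 CPM, within the range of the control group (log2 fold change -0.66, SE 1.03, q = 0.851).

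LOX (chromosome 3, 6327801 to 6342402, minus strand), the lysyl oxidase of fibrillar collagen and elastin, had the widest range of the 9 genes. Its control libraries were at 49.0, 127, and 613 CPM and its TL3h libraries at 410, 1165, and 781 CPM. The TL3d libraries were at 8.17, 167, and 1239 CPM, so the highest was 152 times the lowest, and both the lowest and the highest LOX level of the series fell in this group. The TL14d libraries were at 112, 76.7, and 419 CPM. The log2 fold changes against control were 1.58 at 3 hours (SE 1.40, CI -1.53 to 4.69, q = 0.392), 0.84 at 3 days (SE 1.37, q = 0.693), and -0.37 at 14 days (SE 1.37, q = 0.942) by edgeR. These intervals leave room for a change of LOX in either direction.

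LOXL2, which acts on fibrillar collagen and on the collagen IV of basement membranes, lies on unplaced sequence. It was at 21.1, 54.5, and 141 CPM in the control libraries and at 186, 217, and 176 CPM in TL3h, above all control libraries (log2 fold change 1.42, SE 1.01, q = 0.283, edgeR). The spread among the TL3h libraries was the smallest for this gene, with a highest to lowest ratio of 1.24. At 3 days the levels were 34.0, 135, and 446 CPM (log2 fold change 1.502, SE 1.01, q = 0.306). At 14 days they were 51.0, 413, and 590 CPM (log2 fold change 2.28, SE 1.04, CI -0.02 to 4.58, q = 0.484), so replicates 2 and 3 lay above all control libraries and replicate 1 within them, as for PLOD2. A row described as lysyl oxidase homolog 2-like (LOC103347318) was at 0.641, 1.15, and 3.76 CPM in control and at 1.65, 10.98, and 15.6 CPM in TL14d, and it may share sequence with LOXL2.

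LOXL3 (chromosome 2, 111990273 to 112008448, plus strand), a further member of the family, was the lowest of the 3 oxidases per length, with group means from 5.74 to 7.66 FPKM. It was at 12.7, 16.2, and 34.3 CPM in the control libraries, 24.7, 40.3, and 28.3 CPM in TL3h, 3.95, 13.2, and 43.3 CPM in TL3d, and 14.7, 13.5, and 51.4 CPM in TL14d. Every group overlapped the control group, and the log2 fold changes were 0.56, -0.07, and 0.33 (SE 0.79 each, edgeR). The authors divided its reads among 5 of 6 transcript models, the other model being listed at 0 in every library, and its counts were fractions in every library.

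The balance of the oxidases differed between libraries of the same group. The ratio of LOX to LOXL2 in FPKM was 1.68, 1.68, and 3.15 in the control libraries and 1.599, 3.89, and 3.22 in TL3h. It was 0.174, 0.901, and 2.02 in TL3d and 1.59, 0.135, and 0.515 in TL14d, so LOXL2 exceeded LOX in 2 of 3 libraries at each of the later times and in no control or TL3h library. Relative to its substrate COL1A1, a chain of collagen I, LOX was at 0.0203, 0.0153, and 0.0329 in control, 0.0182, 0.0391, and 0.0288 in TL3h, 0.0239, 0.0483, and 0.0633 in TL3d, and 0.0187, 0.0252, and 0.0248 in TL14d. The range of these ratios within TL3d was far below the 152-fold range of LOX itself, and the groups overlapped.

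Per length, the order of the genes in the control group was SERPINH1 (mean 104 FPKM), PCOLCE (55.8), BMP1 (51.4), LOX (49.8), P4HA2 (24.2), LOXL2 (19.1), PLOD1 (18.1), P4HA1 (14.99), LOXL3 (5.98), and PLOD2 (5.96). Each neighbouring pair in this order overlapped in its range over the 3 libraries. PLOD2 was the lowest in TL3h as well (4.01 FPKM), and it was at rank 9 in TL3d (24.7 FPKM) and rank 4 in TL14d (43.8 FPKM). The TL14d rank is that of a mean over 6.87, 85.1, and 39.4 FPKM. PLOD2 was above the next gene in that order, LOX, in 1 of 3 libraries. LOXL2 was at rank 6 in control and rank 2 in TL14d (95.2 FPKM), where it overlapped its neighbours.

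Within groups most of the genes were high or low in the same libraries. In TL3d, replicate 3 had the highest and replicate 1 the lowest level for 9 of 9 genes. In control, replicate 3 was the highest for 8 of 9 and replicate 1 the lowest for 8 of 9, and PLOD2 ran the other way, with its highest level in replicate 1. In TL3h, replicate 2 was the highest for 8 of 9 and PLOD2 was again the exception, with its lowest level there. In TL14d, replicate 3 was the highest for 7 of 9 genes, and PLOD2 and BMP1 were highest in replicate 2. The median SD of the 9 genes on the log2 scale was 0.98, 0.44, 1.10, and 1.02 in control, TL3h, TL3d, and TL14d, against 0.22, 0.25, 0.20, and 0.31 for the 11758 genes whose mean reached 1 CPM.

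Markers of fibroblasts, the cells best known for expressing these genes, had their highest and lowest sums in the same replicates as most of the genes in control, TL3h, and TL3d. In TL14d their highest sum was also in replicate 3 and their lowest in replicate 2. The 5 markers (DCN, LUM, PDGFRA, FBLN1, and DPT) were all detected in every library. They summed to 2023, 3789, and 11970 CPM in control, 11525, 21357, and 13333 CPM in TL3h, 419, 1461, and 5750 CPM in TL3d, and 3211, 879, and 4596 CPM in TL14d. Of the 5, 0 were past the threshold against control at any time by edgeR or at an unadjusted p under 0.05, and DCN and FBLN1 fell from TL3h to TL3d (q = 0.035 and 0.0194). Of all tested genes, 45.4%, 17.6%, and 0% were past the threshold against control at the 3 times, and 37.3% in TL3d against TL3h. The shares at an unadjusted p under 0.05 against control were 52.3%, 36.2%, and 10.4%. Without the 3 libraries that stood apart, 1 of 5 was higher at 3 hours (FBLN1), 0 were past the threshold at 3 or 14 days, and 4 of 5 fell from TL3h to TL3d (all but DPT). The shares of all tested genes in these 4 comparisons were 52.6%, 25.9%, 8.17%, and 42.1%. Fewer fibroblasts and less RNA per fibroblast cannot be told apart in these bulk samples, and the part of the tissue makeup in the differences between groups was not tested.

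Smooth muscle and myofibroblast markers (ACTA2, TAGLN, MYH11, and DES, 4 of 5 listed genes matched) summed to 13.1 to 61.2 CPM in control, 150 to 178 CPM in TL3h, 52.5, 341, and 1154 CPM in TL3d, and 11.8, 601, and 945 CPM in TL14d. TL14d replicate 1, the TL14d library with PLOD2 and LOXL2 at control levels, was also the TL14d library in which this sum did not exceed control levels. The sum was carried by ACTA2 and TAGLN, while MYH11 and DES did not exceed the highest control library in any TL14d library (MYH11 at most 14.6 CPM, DES at most 1.22 CPM). None of the 4 was past the threshold against control at any time by edgeR, with 1, 2, and 2 at an unadjusted p under 0.05, and without the 3 libraries that stood apart TAGLN was higher at all 3 times and ACTA2 at 3 and 14 days. The 5 leukocyte markers summed to 62.3 to 280 CPM in control, 388 to 774 CPM in TL3h, 761 to 1098 CPM in TL3d, and 72.9 to 362 CPM in TL14d, and 4 of 5 were past the threshold at 3 hours and 5 of 5 at 3 days, all higher. All tested genes past the threshold were 45.4% and 17.6% in these comparisons. The leukocyte counts without the 3 libraries were 5 and 5, with 1 (CD14) at 14 days. The 5 endothelial markers summed to 64.3 to 277 CPM in control, 607 to 1217 CPM in TL3h, 295 to 542 CPM in TL3d, and 90.1 to 286 CPM in TL14d. Of these, 2 were higher than in control at 3 hours (PECAM1 and CDH5, q = 0.0109 and 0.0401), and 0 were past the threshold at 3 or 14 days by edgeR or at an unadjusted p under 0.05. PECAM1 carried the sum in TL3h, where KDR was at 18.6 CPM against 32.8 CPM in control (means, not past the threshold). The endothelial counts without the 3 libraries were 2, 1 (PECAM1), and 0 at the 3 times, all higher. In that fit 52.6%, 25.9%, and 8.17% of all tested genes were past the threshold at the 3 times. At an unadjusted p under 0.05 in the main fit the shares were 52.3%, 36.2%, and 10.4%.

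Some markers of the surface epithelium also changed in the comparison in which PLOD2 rose, in both directions. The sum of the epithelial markers was higher in every TL3d library than in every TL3h library, and of the 6 markers KRT5 and KRT13, keratins of stratified epithelium, rose (log2 fold changes 1.69 and 2.13, q = 0.019 and 0.016, edgeR) while EPCAM fell (-1.48, q = 0.000145), 3 of 6 beside 37.3% of all tested genes. KRT5 and KRT13 carried the sum, and CDH1, an adhesion protein of epithelia, was lower in every TL3d library than in every TL3h library (log2 fold change -0.61, q = 0.0768). Of the 3 corneal markers, KRT3, a keratin of corneal epithelium, was at 82.9, 55.7, and 53.5 CPM in control, 39.1, 18.2, and 21.1 CPM in TL3h, 303, 317, and 289 CPM in TL3d, and 83.9, 656, and 225 CPM in TL14d. KRT3 rose at 3 days against control (log2 fold change 2.24, q = 0.0346) and against TL3h (3.53, q = 0.0021), and within TL14d it was lowest in replicate 1 and highest in replicate 2, as PLOD2 was. Another corneal keratin, KRT12, was at 139 CPM in TL14d replicate 2 and at most 7.62 CPM in any other library, and KERA, a proteoglycan of the corneal stroma, was not past the threshold in these comparisons. With the 3 libraries that stood apart left out, KRT5, KRT13, and KRT3 were again higher and EPCAM and KERA lower in TL3d than in TL3h. The part of these cells, and of the smooth muscle cells and leukocytes, in the PLOD2 result was not tested.

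**Figure D4:**
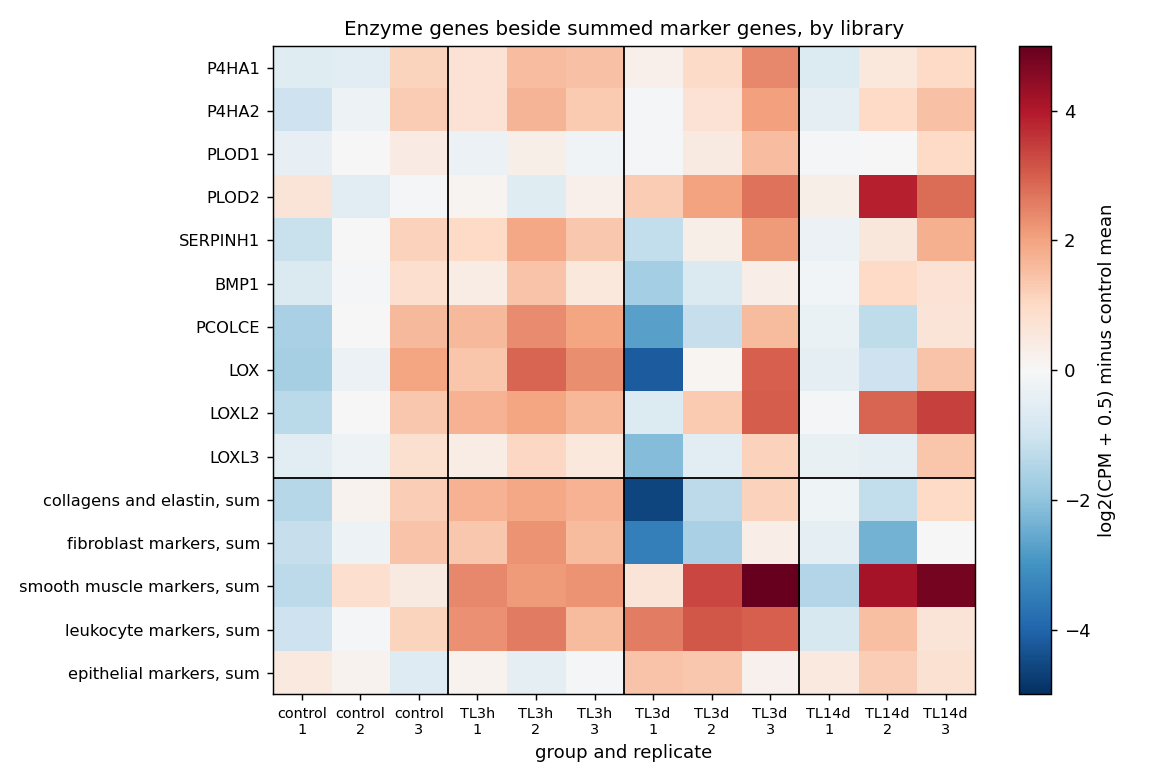
Each column is a library and each line a gene or a summed marker list. Colour gives log2(CPM + 0.5) minus the control mean (red higher, blue lower). Within TL3d, LOX, PCOLCE, and the summed substrate genes (collagen chains and elastin) rise from replicate 1 to replicate 3. This is the order of the fibroblast markers, though the heights differ. PLOD2 has the same order, but it is above its control mean in all TL3d libraries. It is also high in TL14d replicates 2 and 3.

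To describe the genes beside the stromal content of each library, their CPM were expressed as a percentage of the summed fibroblast markers, a measure added after the data were seen and given without a test. At 3 days, 7 of the 9 genes were higher than in every control library in all 3 libraries on this scale, where 12.5% of all tested genes were. The exceptions were LOX and BMP1. The same held for 0 of 9 genes at 3 hours (3.32% of all genes) and for 1 of 9, LOXL2, at 14 days (3.04%). At 3 hours 4 of 9 genes were lower than in every control library, near the 42.7% of all tested genes that were.

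These counts depended on the denominator. At 3 hours, with PDGFRA alone, 6 of 9 genes were higher than in every control library (11.5% of all genes) and 0 lower, while with each of the other 4 markers alone 0 were higher and 1 (FBLN1), 2 (DPT), 4 (DCN), or 5 (LUM) were lower. DCN was the largest part of the summed markers in the control libraries, and without it the count of higher genes at 3 days was 3 of 9 (LOXL2, P4HA1, and P4HA2, with 5.18% of all genes). With a single marker as the denominator it was 8 of 9 for DCN (19.9% of all genes) and for PDGFRA (33.1%), 4 for FBLN1 (20.6%), 3 for DPT (4.39%), and 1, LOXL2, for LUM (2.97%). The DCN level differed from control by -1.86 on the log2 scale at 3 days and the LUM level by 0.57, neither past the threshold. At 3 days LOXL2 was above control with 4 of the 5 single markers, the exception being FBLN1.

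On the scale of the summed markers, LOXL2 was at 1.04%, 1.44%, and 1.18% in control and at 8.11%, 9.22%, and 7.75% in TL3d, while its CPM had spanned 13.1-fold among the same TL3d libraries. SERPINH1 was at 2.39 ± 0.38% in control and 9.30 ± 1.35% in TL3d (SD, n = 3 each). PLOD2 was at 1.81%, 0.405%, and 0.184% in control and 13.4%, 6.43%, and 2.71% in TL3d, and P4HA2 at 1.03 ± 0.09% and 6.38 ± 3.65% (SD, n = 3 each). Any expression of these genes in other cells also enters the percentage.

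**Figure D5:**
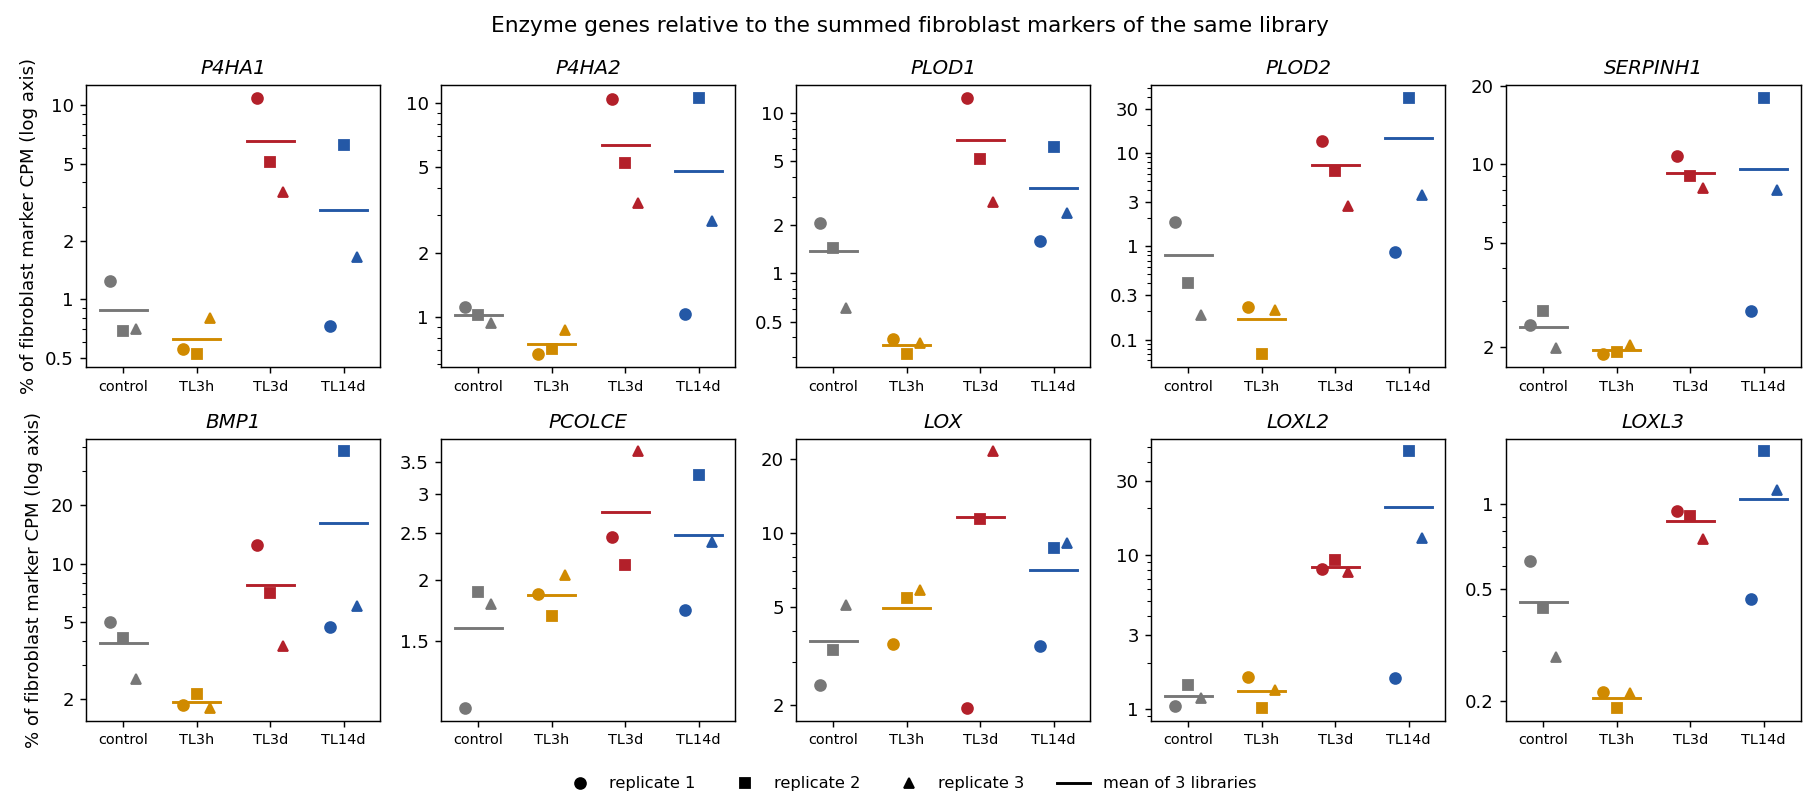
CPM of each gene as a percentage of the summed CPM of 5 fibroblast markers in the same library (log axis), by group, with bars at the mean of 3 libraries. LOXL2 is at 7.75% to 9.22% in TL3d and at 1.04% to 1.44% in control, and TL14d replicate 1 lies near the control libraries in most panels.

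Without control replicate 3, TL3d replicate 3, and TL14d replicate 1, the counts of the 9 genes past the threshold were 5 at 3 hours, 1 at 3 days, and 3 at 14 days against control, where 52.6%, 25.9%, and 8.17% of all tested genes were past it. The genes were LOXL2, P4HA1, P4HA2, PCOLCE, and BMP1 at 3 hours, P4HA1 at 3 days, and PLOD2, LOXL2, and P4HA2 at 14 days, all higher. In the same fit PLOD2 in TL3d against TL3h had a log2 fold change of 1.76 (q = 0.0238), and PCOLCE and BMP1 were lower (-3.73 and -1.93, q = 0.0116 and 0.0119), 3 of 9 genes beside 42.1% of all tested genes. From TL3d to TL14d 0 of 9 were past the threshold (2.4%). Since control replicate 3 held the highest level of 8 of the 9 genes, its removal lowers the control means of these genes.

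The median log2 fold change over the 9 genes was 0.98 at 3 hours, 0.84 at 3 days, and 0.35 at 14 days against control, beside 0.02, 0.00, and 0.02 over all tested genes. The values were above 0 for 7, 6, and 7 of the 9 genes. At 3 hours the 3 libraries did not overlap the control group for 2 of 9 genes (LOXL2 and PCOLCE, both higher), at 3 days for 1 (PLOD2, higher), and at 14 days for 0, against 57.3%, 45.5%, and 11.1% of all tested genes. From TL3d to TL14d the groups overlapped for all 9 genes, against 27.4% of genes without overlap.

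The collagen chains that the enzymes act on showed the same wide spread. COL1A1 was at 2416, 8279, and 18606 CPM in control, 22457, 29728, and 27030 CPM in TL3h, 342, 3452, and 19531 CPM in TL3d, and 5981, 3035, and 16898 CPM in TL14d. COL1A2 and COL3A1 were at 13325 ± 9493 and 12715 ± 9907 CPM in control and at 35826 ± 1971 and 35906 ± 2124 CPM in TL3h (SD, n = 3 each). For these 3 chains each TL3h library was above each control library, as for 3 of the 6 substrate genes listed and 57.3% of all tested genes without overlap in either direction. COL5A1, COL5A2, and elastin (ELN) overlapped the control group, with log2 fold changes of 0.28, 1.06, and 1.09. Of the 6 genes, 0 were past the threshold against control at any time by edgeR (45.4%, 17.6%, and 0% of all tested genes), and 0 had an unadjusted p under 0.05 (52.3%, 36.2%, and 10.4%). Without the 3 libraries that stood apart, 1 (COL5A2) was higher at 3 hours, 0 were past the threshold at 3 or 14 days, and 4 fell from TL3h to TL3d (COL1A1, COL1A2, COL3A1, and COL5A1). The shares of all tested genes in these 4 comparisons were 52.6%, 25.9%, 8.17%, and 42.1%.

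Of 24 further genes for collagen modification, folding, propeptide removal, export, and crosslinking, 22 had a row and 21 were tested. At 3 hours 2 were higher and 1 was lower than in control, and 18 did not pass, where 45.4% of all tested genes were past the threshold. Without the 3 libraries that stood apart, 11 were past the threshold at 3 hours, 8 at 3 days, 6 at 14 days, and 6 from TL3h to TL3d, beside 52.6%, 25.9%, 8.17%, and 42.1% of all tested genes. PPIB, a prolyl isomerase of the endoplasmic reticulum that takes part in collagen folding, rose from 233 ± 68.6 to 427 ± 31.1 CPM (SD, n = 3 each; log2 fold change 0.87, q = 0.0209). PLOD3, the third lysyl hydroxylase, which also has glycosyltransferase activity, rose from 7.33 ± 2.64 to 20.2 ± 5.71 CPM (log2 fold change 1.46, q = 0.0204). TGM2, a transglutaminase that crosslinks proteins through glutamine and lysine, fell from 3428 ± 1358 to 1000 ± 546 CPM (log2 fold change -1.78, q = 0.0343). None of the 21 genes was past the threshold without control replicate 1, control replicate 2, or TL3h replicate 2, and 1 was without TL3h replicate 3.

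PLOD3 was matched by gene ID to a row on unplaced sequence, and the row beside it (LOC100340803) is annotated as PLOD1. That row was at 7.81, 9.08, and 16.1 CPM in control and at 24.1, 38.6, and 29.3 CPM in TL3h (log2 fold change 1.48, SE 0.41, q = 0.0146, edgeR). It thus followed PLOD3 in that comparison, where the row named PLOD1 had a log2 fold change of -0.07, and which gene it belongs to is uncertain.

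At 3 days 1 of the 21 genes was higher and 1 lower than in control, beside 17.6% of all tested genes past the threshold. LOXL4, a lysyl oxidase outside the 10 listed genes, was at 8.88, 14.1, and 19.4 CPM in control, 43.4, 47.3, and 56.8 CPM in TL3h, and 80.6, 117, and 87.2 CPM in TL3d. It rose at 3 days (log2 fold change 2.75, SE 0.82, q = 0.0448, edgeR), with q between 0.00499 and 0.136 over the fits that leave out 1 library, of which 2 of 12 were past the threshold. At 3 days none of the 21 genes was past it without control replicate 1 or 2 or TL3d replicate 1 or 2. Its TL14d libraries were at 12.5, 278, and 77.2 CPM, low in the same replicate as PLOD2 and LOXL2. Unlike LOX and LOXL2, LOXL4 did not follow the fibroblast markers within TL3d, where its highest library was replicate 2.

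COLGALT2, a collagen galactosyltransferase, was expressed at a low level. It was at 2.71 ± 1.10 CPM in control and 3.68 ± 1.18 CPM in TL3h, it fell to 0.591 ± 0.449 CPM in TL3d (SD, n = 3 each; log2 fold change -2.19 against control, q = 0.0246), and it was at 3.34 ± 0.86 CPM in TL14d (2.49 against TL3d, q = 0.0486). The last call held in 3 of 12 fits that leave out 1 library (q from 0.0369 to 0.164) and was lost with no filter and with only the 6 libraries compared. From TL3h to TL3d 3 of the 21 genes fell and 0 rose, beside 37.3% of all tested genes past the threshold. The 3 were COLGALT2, the procollagen enhancer PCOLCE2, and CREB3L1, a transcription factor of collagen-secreting cells. PCOLCE2 fell from 295 ± 141 to 25.2 ± 29.5 CPM (log2 fold change -3.55, q = 0.0286) and CREB3L1 from 177 ± 12.6 to 58.5 ± 36.6 CPM (-1.599, q = 0.0308), both SD, n = 3 each. Over the 12 fits that leave out 1 library, the call held in 12 for COLGALT2, in 9 for PCOLCE2 (q up to 0.1), and in 7 for CREB3L1 (q up to 0.109). At 14 days 0 of the 21 genes were past the threshold against control by edgeR (0% of all tested genes), and 4 had an unadjusted p under 0.05 (10.4%). DESeq2 called 3 (2.49%) and limma-voom 0 (0%).

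Several of these enzymes, among them PLOD2, P4HA1, and LOX, are known targets of the hypoxia-inducible factors, so 12 other genes known to respond to low oxygen were read beside them. They summed to 884 to 1197 CPM in control, 2293 to 3089 CPM in TL3h, 1897 to 3253 CPM in TL3d, and 976 to 1599 CPM in TL14d. At 3 hours 5 were higher than in control (VEGFA, ADM, NDRG1, LDHA, and PGK1) and PDK1 was lower, 6 of 12 beside 45.4% of all tested genes. At 3 days 4 were higher (VEGFA, SLC2A1, LDHA, and PGK1), beside 17.6% of all tested genes. At 14 days 0 were past the threshold by edgeR (0% of all tested genes), with 3 at an unadjusted p under 0.05 (10.4%). Without the 3 libraries that stood apart, 6 were higher and 2 lower at 3 hours, 7 higher and 1 lower at 3 days, and 2 higher and 1 lower at 14 days, beside 52.6%, 25.9%, and 8.17% of all tested genes. The members of the list differed in their time course, since SLC2A1 had log2 fold changes of -0.13, 1.66, and 0.64 at the 3 times, as against 1.72, 1.67, and 0.77 for PGK1 and -0.11, 2.05, and 2.86 for PLOD2. Whether low oxygen had a part in the PLOD2 level was not tested.

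For each gene, the 1 gene outside the list whose profile was closest was taken among 11758 genes, by the root mean square difference over 12 libraries of log2(CPM + 0.5) centred on the control mean. LOXL2 was closest to BGN (0.47), the proteoglycan biglycan, and LOX to MGP (0.64), matrix Gla protein. LOXL3 was closest to FKBP14 (0.28), a collagen-folding isomerase that is also among the 24 further genes, and P4HA1 to CALU (0.27), a calcium-binding protein of the secretory pathway. P4HA2 was closest to MAP1B (0.26), PCOLCE to SHOX2 (0.39), BMP1 to GAS1 (0.34), and PLOD1 to PLCL2 (0.22). PLOD2 was closest to SLC38A3 (0.53), an amino acid transporter, and its nearest other enzyme of the list was LOXL2, at 1.40. That distance was the largest between any of the 9 genes and its nearest other member, for which the remaining values ran from 0.31 to 0.94.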

How the data were processed

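RNA of rabbit conjunctiva was sequenced by the authors in 12 libraries, 3 in each of 4 groups. Per the labels, stranded mRNA libraries were mapped with STAR 2.6.0c to OryCun2.0. The authors deposited estimated counts per gene and per transcript, of which 23.4% per gene were fractions, and how reads with several placements were divided is not given in the sources used here. They also deposited FPKM values, scaled by length and depth, which were used here only for levels between genes and for ratios.

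The estimated counts were rounded, filtered with filterByExpr (minimum count 10, minimum total count 15; 14835 of 20566 genes kept), and scaled by TMM, with factors of 0.768 to 0.783 in TL3h and 1.03 to 1.13 elsewhere. All 12 libraries entered 1 fit in edgeR 4.0.16 (R 4.3.3, prior count 0.125). DESeq2 1.42.0 and limma 3.58.1 (voom), other scalings, no filter, fits of 6 libraries, a replicate block, and leaving out each library were the alternatives. The members and gene lists were chosen with earlier results of these data known. Named beyond the 10 genes are, per list, up to 6 genes past the threshold with the largest change at a mean of 1 CPM or more, 3 collagen chains, and the nearest gene by profile. Marker genes are named as members of their lists, and PDK1 and the near copies of the enzymes were named after their values were seen. Gene names are those of the gene table or, for rows without a symbol, of RefSeq by gene ID. P4HB, COLGALT1, CNN1, and TNNT3 were not analysed here. Replicate numbers were not taken as pairs, and no copied library was found. The intervals and limits cover counting error or the spread between libraries only.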

Additional observations from a re-analysis of the deposited data

Results flagged for a closer look

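The change of PLOD2 from 3 hours to 3 days is listed because its difference from control at these times differed by a direct test. PLOD2 was 2.16 higher on the log2 scale in TL3d than in TL3h (SE 0.75, q = 0.0439, edgeR quasi-likelihood test), with all 3 TL3d libraries above all 3 TL3h libraries. Groups of 3 libraries are too small for a rule on single outlying samples.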

How the results depend on the processing

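Over 20 alternatives, 863 of 900 log2 fold changes of the 9 genes in 5 comparisons kept their direction where they were past the threshold and their side of it. The other 37 comprised 26 that passed it only under the alternative and 11, all PLOD2 in TL3d against TL3h, that no longer did, and 0 changed sign with a call. The cause of these changes was not tested. Counts of the 9 genes past the threshold (main counts 0, 0, 0, and 1 for TL3h, TL3d, and TL14d against control and TL3d against TL3h) were 1 at TL3d with DESeq2 (30.3% of all tested genes) and with only the 6 libraries compared (22.6%), 1 at TL14d with DESeq2 (2.49%), and 2 and 0 in TL3d against TL3h with library size only (42.5%) and with limma-voom (36.5%). Leaving out 1 library gave 0 to 1 at TL3d, 0 to 1 at TL14d, and 0 to 2 in TL3d against TL3h. Of all tested genes, 2.37% to 25%, 0% to 4.74%, and 26.1% to 41.2% were past the threshold in these fits. Without the 3 libraries that stood apart, an alternative chosen after seeing the data, the counts were 5, 1, 3, and 3 (52.6%, 25.9%, 8.17%, and 42.1% of all tested genes).

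Of the 21 further genes (main counts 3, 2, 0, 3, and 1, the last for TL14d against TL3d), DESeq2 called 6, 10, and 3 against control (51.1%, 30.3%, and 2.49% of all tested genes). The 6 libraries compared gave 7 at TL3h (45.5%), 5 at TL3d (22.6%), and 0 in TL14d against TL3d (0.105%). No filter gave 1 at TL3d (12.1%) and 0 in TL14d against TL3d (1.38%), and limma-voom gave 1 at TL3d (19%). Leaving out 1 library gave 0 to 6, 0 to 8, 0 to 2, 1 to 5, and 0 to 1 in the 5 comparisons. Of all tested genes, 34.9% to 48.1%, 2.37% to 25%, 0% to 4.74%, 26.1% to 41.2%, and 0% to 3.87% were past the threshold in these fits. Leaving out 3 gave 11, 8, 6, and 6 in the first 4 comparisons (52.6%, 25.9%, 8.17%, and 42.1%). With library size alone the median of all genes was -0.47 at TL3h and 0.43 in TL3d against TL3h (log2). In the main fit these medians were 0.02 and -0.05.

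When the replicate number entered as a block, 4 of the 9 genes were past the threshold at TL3h (LOXL2, P4HA1, P4HA2, and PCOLCE), 1 at TL3d (P4HA1), and 2 in TL3d against TL3h (PCOLCE and BMP1, without PLOD2, q = 0.0741), and 6 and 8 of the further genes at TL3h and TL3d, beside 46.8%, 18.3%, and 39.3% of all tested genes in these 3 comparisons. The labels do not say whether libraries of the same number share an animal or a batch, and the samples were not taken as paired. The deviations of 18 same-numbered pairs correlated by -0.16 to 0.53, with 8 over 0.1. These correlations were not tested and do not settle whether the numbers mark pairs.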
